A study of Mus musculus with 12 samples.

Results

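The 44 genes described here encode collagens and the proteins around them in the extracellular matrix of muscle: basement membrane laminins, adhesive and elastic glycoproteins, small proteoglycans, tendon proteins, matrix-processing enzymes and their inhibitors, and a fibroblast receptor. They were listed by symbol, without use of their measured values, and all 44 were found among the 47643 genes of the count table. The tissue was gastrocnemius (calf) muscle of 6 female C57BL/6J mice aged 11 weeks, sequenced with a kit that reads the 3' end of each messenger RNA. The 12 libraries formed 4 groups of 3: contracted right legs and uncontracted left legs of animals with c-myc over-expression (Myc animals), and contracted right legs and uncontracted left legs of control animals. Contraction was acute and of high intensity, and it cannot be told apart from body side. Neither the construct behind the over-expression nor the time of sampling after contraction is given in the sources used here.

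Fibrillar collagens are secreted as procollagens, trimmed by proteases and cross-linked by lysyl oxidases into the fibres that carry load through muscle and tendon. Type IV collagen and laminins form the basement membrane that wraps each muscle fibre, and type VI collagen links it to the fibrous matrix outside. Most of these proteins are made by fibroblasts, tendon cells and vessel cells rather than by the muscle fibre, and small proteoglycans such as decorin bind collagen fibrils and growth factors. Myc is a transcription factor that drives growth and ribosome production.

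Library totals were 1371732 to 1643216 reads, so that 1 read was worth 0.609 to 0.729 CPM (reads scaled to a common library total), and the 44 genes took 3990 to 8093 reads of a library. Levels below are normalised CPM, in which the total is first scaled by the TMM factor. A transcript gives reads only near its 3' end, so these levels are not divided by length. Of the 44 genes, 39 had enough reads to be tested among the 6676 genes that passed the low-count filter. The other 5 were Col12a1 and Col14a1, which code for collagens on the fibril surface, with 1 to 3 and 2 to 13 reads per library, Postn with 0 to 7, Nid1 with 3 to 17 and Pdgfra with 2 to 12. The 8 markers of muscle fibres were all read, at a summed 92435 to 119765 CPM per library. In whole muscle, fewer cells of a type and less RNA per cell cannot be told apart.

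Myc, the targeted gene, had reads that went against the labels in 4 libraries. The contracted libraries labelled Myc 1, 2 and 3 had 32, 0 and 2 reads of Myc, against 11, 9 and 9 in the uncontracted Myc libraries. The contracted libraries labelled control 1, 2 and 3 had 1, 10 and 59, against 0, 1 and 0 in the uncontracted control libraries. By these reads, contracted libraries 2 and 3 of each genotype go against their labels, and results that rest on them are given with and without them. Whether contraction itself raised the Myc reads of contracted control legs was not tested. Leaving those 4 libraries out keeps 1 contracted library per genotype, which is then assumed to vary like the other groups. The genotype names below are the labels.

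Promoter windows are shown because they belong to genes on which the results turn: Col1a2 and Col3a1, fibrillar collagens that were low in uncontracted Myc legs, and Thbs4, which rose with contraction. Each is the 250 bases before the RefSeq gene start on build GRCm38.p6, read 5' to 3' along the gene's strand, with capitals marking a match to a searched motif. They lie at chr6:4505368-4505617 (plus strand, Col1a2), chr1:45311288-45311537 (plus strand, Col3a1) and chr13:92794819-92795068 (minus strand, Thbs4). The annotation that gave the other gene positions here starts Col1a2 earlier, at 4504814. By that annotation the Col1a2 window lies inside the gene.
Col1a2: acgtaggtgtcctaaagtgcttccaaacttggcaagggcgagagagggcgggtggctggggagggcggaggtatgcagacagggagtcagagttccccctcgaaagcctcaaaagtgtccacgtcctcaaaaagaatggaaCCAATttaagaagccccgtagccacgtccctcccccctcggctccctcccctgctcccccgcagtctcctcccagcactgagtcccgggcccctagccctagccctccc
Col3a1: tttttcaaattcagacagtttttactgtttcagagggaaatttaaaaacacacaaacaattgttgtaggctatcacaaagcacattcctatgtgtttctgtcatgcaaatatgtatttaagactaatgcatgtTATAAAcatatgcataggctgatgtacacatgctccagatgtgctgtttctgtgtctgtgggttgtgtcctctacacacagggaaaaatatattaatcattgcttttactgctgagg
Thbs4: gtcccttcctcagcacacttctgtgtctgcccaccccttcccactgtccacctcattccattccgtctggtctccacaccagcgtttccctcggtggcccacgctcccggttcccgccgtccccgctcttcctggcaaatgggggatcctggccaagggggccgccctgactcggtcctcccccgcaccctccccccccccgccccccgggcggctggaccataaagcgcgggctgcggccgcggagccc
The letters searched on both strands were CCAAT (the CCAAT box), TATAAA (the TATA box), CACGTG (the E-box form that Myc is known to bind) and TGACTCA (the AP-1 site). No motif contains another. The Col1a2 window held CCAAT, the Col3a1 window held TATAAA and the Thbs4 window held none of the 4. Over the 31 RefSeq windows of the 29 genes matched, 25.8% held CCAAT, 6.45% TATAAA, 0 CACGTG and 6.45% TGACTCA. Over all 32851 RefSeq windows of that length the shares were 33.8%, 12.4%, 6.02% and 4.46%.

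Among the 44 genes, mean levels over the 12 libraries ran between 1.60 CPM for Col12a1 and 1185 CPM for Sparc. Sparc codes for a collagen-binding glycoprotein (ENSMUSG00000018593, chromosome 11, 55394500 to 55423183, minus strand, build mm10). Its level was 842, 1706 and 1615 CPM in contracted Myc legs and 1047, 793 and 770 CPM in uncontracted Myc legs. It was 986, 1113 and 1328 CPM in contracted control legs and 1256, 1197 and 1562 CPM in uncontracted control legs. Contracted Myc 2 and 3 were the highest of the 12 libraries, and all uncontracted Myc legs lay below all uncontracted control legs.

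Col1a1, the main chain of type I collagen (ENSMUSG00000001506, chromosome 11, 94936224 to 94953042, plus strand), had 305, 697 and 644 CPM in contracted Myc legs and 338, 336 and 475 CPM in uncontracted Myc legs. In controls it had 558, 282 and 454 CPM in contracted legs and 515, 1111 and 710 CPM in uncontracted legs. The uncontracted legs of the genotypes did not overlap, whereas the contracted legs did. Its partner chain Col1a2 had 61.5, 203 and 122 CPM in contracted Myc legs and 70.2, 55.9 and 79.1 CPM in uncontracted Myc legs, against 93.5, 99.3 and 151 CPM in contracted control legs and 58.6, 178 and 154 CPM in uncontracted control legs. Uncontracted control 1 was as low as the Myc legs for this gene. Col3a1, the type III collagen of loose and repairing matrix, had 69.8, 93.3 and 101 CPM in contracted Myc legs and 75.9, 62.9 and 72.1 CPM in uncontracted Myc legs. Contracted control legs had 101, 66.6 and 76.1 CPM and uncontracted control legs 81.8, 102 and 152 CPM, all above the uncontracted Myc legs.

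Lamb2, a laminin chain of the muscle basement membrane (chromosome 9, 108479736 to 108490530, plus strand), spread less. It had 120, 111 and 109 CPM in contracted Myc legs and 128, 139 and 130 CPM in uncontracted Myc legs, against 150, 117 and 113 CPM in contracted control legs and 168, 145 and 142 CPM in uncontracted control legs. Each contracted leg was below the uncontracted leg of its animal. Decorin, a small proteoglycan coded by Dcn (chromosome 10, 97479609 to 97518143, plus strand), had 196, 351 and 278 CPM in contracted Myc legs and 216, 156 and 125 CPM in uncontracted Myc legs. It had 188, 292 and 383 CPM in contracted control legs and 245, 149 and 278 CPM in uncontracted control legs, so that all 4 groups overlapped.

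Timp3, a metalloprotease inhibitor held in the matrix, had 102, 146 and 145 CPM in contracted Myc legs and 108, 115 and 135 CPM in uncontracted Myc legs. In contracted control legs it had 119, 135 and 153 CPM and in uncontracted control legs 106, 125 and 133 CPM, with overlap between all groups. Syn3, annotated over Timp3 on the other strand, had no read in any library. Pdgfra, a growth factor receptor that marks fibroblasts, had 2.79, 6.14 and 2.43 CPM in contracted Myc legs, 2.55, 4.45 and 1.57 CPM in uncontracted Myc legs, 3.54, 7.99 and 1.97 CPM in contracted control legs and 3.22, 2.04 and 4.95 CPM in uncontracted control legs. Those levels stand for 2 to 12 reads and separate no groups.

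**Figure D1:**
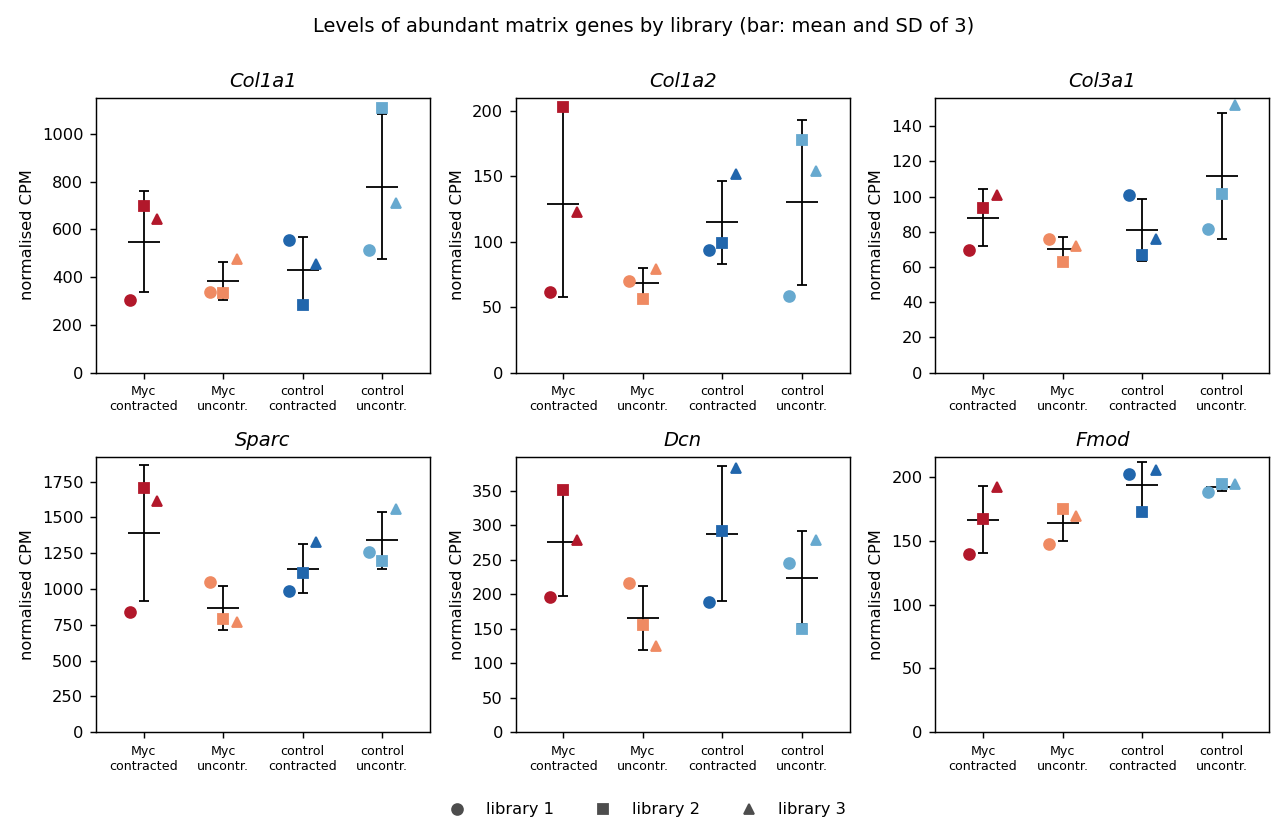
Level in normalised CPM (vertical axis, linear, from 0) of 6 abundant matrix genes in each of the 12 libraries, by group, with the mean and SD of 3. For Col1a1, Col3a1, Sparc and Fmod the 3 uncontracted Myc libraries lie below all 3 uncontracted control libraries.

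Contraction was compared first within each genotype and then averaged over both, with no library shared between the genotypes. Lox and Thbs4 were the only 2 of the 39 genes to rise in the averaged comparison by edgeR's quasi-likelihood test, and none fell. Over all 6676 genes, 5.71% rose and 1.77% fell in that comparison. The members' median log2 change was 0.03, beside -0.0034 for all genes tested, with 21 changes above 0 and 18 below. Changes in the 2 directions were thus about equally frequent among these genes (49.5% of all genes were above 0). An unadjusted p under 0.05 was found for 9 of the 39 (20.2% of all genes).

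Lox codes for lysyl oxidase, the enzyme that starts the cross-linking of collagen and elastin. It had 17.5, 41.8 and 45.0 CPM in contracted Myc legs and 17.9, 14.6 and 11.0 CPM in uncontracted Myc legs. It had 29.1, 39.3 and 35.4 CPM in contracted control legs and 12.2, 27.9 and 15.5 CPM in uncontracted control legs. The contracted leg was higher in 5 of 6 animals, the exception being Myc 1, whose legs were alike. The means were 34.8 ± 15.1 CPM in contracted Myc legs against 14.5 ± 3.45 CPM in uncontracted Myc legs, and 34.6 ± 5.17 CPM in contracted control legs against 18.6 ± 8.29 CPM in uncontracted control legs (SD, n = 3 each). Lox rose by 1.08 ± 0.22 on the log2 scale (SE) averaged over genotypes, with an edgeR adjusted p of 0.00292.

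In Myc animals alone the log2 change of Lox was 1.26 ± 0.32 (edgeR adjusted p 0.0282), although the groups overlapped through contracted Myc 1. In control animals it was 0.91 ± 0.31 (edgeR adjusted p 0.163), with contracted legs all above uncontracted legs. The difference between these changes was 0.35 ± 0.45 (edgeR adjusted p 0.978). Lox did not pass in any of these comparisons without the 4 contracted libraries numbered 2 and 3: the log2 changes were then 0.46 averaged, 0.27 in Myc animals and 0.65 in controls, with edgeR adjusted p of 0.799, 0.983 and 0.925. The call in Myc animals also ended without contracted Myc 2 (edgeR adjusted p 0.159), contracted Myc 3 (0.192), uncontracted Myc 2 (0.104) or uncontracted Myc 3 (0.128). The call in the averaged comparison held when each library was left out singly, with log2 changes of 0.95 to 1.27.

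Thbs4 codes for thrombospondin 4, a glycoprotein of tendon and of the muscle-tendon attachment (ENSMUSG00000021702, chromosome 13, 92751590 to 92794818, minus strand). It had 55.2, 64.5 and 63.3 CPM in contracted Myc legs and 42.7, 48.3 and 27.4 CPM in uncontracted Myc legs. It had 45.3, 59.3 and 61.0 CPM in contracted control legs and 17.4, 45.0 and 37.8 CPM in uncontracted control legs. Contracted legs lay above uncontracted legs without overlap in each genotype, and the contracted leg was higher in 6 of 6 animals. The means were 61.0 ± 5.06 CPM in contracted Myc legs against 39.5 ± 10.8 CPM in uncontracted Myc legs, and 55.2 ± 8.58 CPM in contracted control legs against 33.4 ± 14.3 CPM in uncontracted control legs (SD, n = 3 each).

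Averaged over genotypes Thbs4 rose by 0.67 ± 0.17 on the log2 scale (SE, edgeR adjusted p 0.0173). Within a genotype the edgeR changes were 0.61 ± 0.24 in Myc animals (adjusted p 0.192) and 0.73 ± 0.25 in controls (adjusted p 0.160). The averaged change was 0.46 without the 4 contracted libraries numbered 2 and 3 (edgeR adjusted p 0.724), and 0.57 without uncontracted Myc 3 (adjusted p 0.0513). The averaged changes of the other tendon genes combined opposite signs. Comp, a cartilage and tendon matrix protein, had a log2 change of 0.47 ± 0.27 in Myc animals and -0.41 ± 0.26 in controls, and 0.03 averaged. Tnmd, a tenocyte membrane protein, had 0.65 ± 0.41 in Myc animals and -0.79 ± 0.38 in controls, and -0.07 averaged. Neither gene passed in any of these comparisons.

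**Figure D2:**
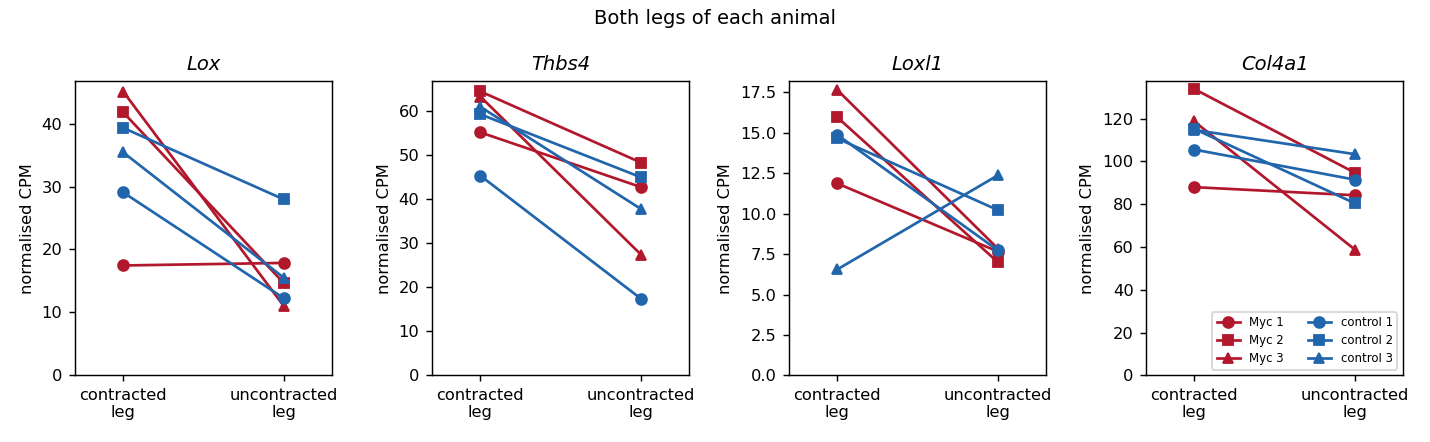
Level in normalised CPM (vertical axis, linear, from 0) of Lox, Thbs4, Loxl1 and Col4a1 in both legs of each animal, joined by a line, with Myc animals in red and control animals in blue. Thbs4 and Col4a1 were higher in the contracted leg of 6 of 6 animals, and Lox and Loxl1 in 5 of 6.

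Among the genes that did not pass, Col4a1, a chain of basement membrane collagen, was higher in the contracted leg of 6 of 6 animals. It had 88.0, 134 and 119 CPM in contracted Myc legs and 84.2, 94.7 and 58.7 CPM in uncontracted Myc legs, against 106, 115 and 115 CPM in contracted control legs and 91.5, 80.4 and 103 CPM in uncontracted control legs. Its averaged log2 change was 0.40 ± 0.12 (edgeR adjusted p 0.0515), and 0.18 without the 4 libraries (adjusted p 0.913). It passed in 3 of 8 other settings: with the genotype labels not used at all (0.39, adjusted p 0.0455), with the stricter filter (0.40, 0.0491) and with no filter (0.39, 0.0253). It also passed without contracted Myc 1 (0.47, 0.00835), uncontracted Myc 2 (0.47, 0.0334), contracted control 1 (0.40, 0.0480) or uncontracted control 3 (0.45, 0.0454). Col4a2, its partner chain, which shares a promoter region with it and overlaps it at the start, had an averaged change of 0.17 ± 0.11 and was higher in 4 of 6 contracted legs. The laminin chains took both signs: the averaged log2 change was 0.48 for Lamc1, -0.24 for Lamb2 and -0.57 for Lama2, none of which passed. Lamb2 and Lama2 were lower in the contracted leg of 6 of 6 animals, as were Col5a1, a regulator of fibril width, with an averaged log2 change of -0.37, and Bgn, the proteoglycan biglycan, with -0.16. The share of all genes that moved the same way in 6 of 6 animals was not counted.

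Loxl1, a lysyl oxidase relative that acts on elastin, had 11.9, 16.0 and 17.7 CPM in contracted Myc legs and 7.66, 6.99 and 7.83 CPM in uncontracted Myc legs, and 14.9, 14.7 and 6.56 CPM in contracted control legs against 7.73, 10.2 and 12.4 CPM in uncontracted control legs. The groups were separate in Myc animals and overlapped in controls through contracted control 3. The edgeR log2 change was 1.02 ± 0.32 in Myc animals (adjusted p 0.0866) and 0.24 ± 0.32 in controls (adjusted p 0.821). The difference between these changes was 0.78 ± 0.46 (adjusted p 0.966).

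Within control animals none of the 39 genes passed, by edgeR or by DESeq2, where 2.8% of all genes tested did by edgeR. The median log2 change was -0.11, beside 0.0071 for all genes, with 14 above 0 and 25 below (50.9% of all genes were above 0). The members with an unadjusted p under 0.05 numbered 5 of 39 (12.9% of all genes). The 6 fibrillar collagens tested, Col1a1, Col1a2, Col3a1, Col5a1, Col5a2 and Col5a3, all had negative changes in controls, with a median of -0.46. Col1a1 had the lowest, -0.85 ± 0.28 (edgeR adjusted p 0.131). It passed without contracted control 1, without contracted Myc 1, or with no low-count filter (edgeR adjusted p 4.52e-07). Over 8 other settings its change was -0.86 to -0.49. In control 1, Col1a1, Col1a2 and Col3a1 were higher in the contracted leg, with log2 changes of 0.12, 0.67 and 0.30. They were lower in controls 2 and 3, whose contracted libraries go against their labels by Myc reads. Col5a1, Col5a2 and Col5a3 were lower in control 1, at -0.31, -0.18 and -0.17. Without contracted libraries 2 and 3 of both genotypes, 16 of the 39 members were above 0 in controls and 23 below. Lox passed in controls without uncontracted control 2, without contracted Myc 1, or with no low-count filter (edgeR adjusted p 0.0129). The 10 basement membrane genes were split, 5 above 0 and 5 below, and 3 members (Col4a1, Lox and Thbs4) had contracted legs all above uncontracted legs, where 9.68% of all genes did. Lamb1, a laminin chain, had them all below, as did 7.13% of all genes.

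Within Myc animals 1 of the 39 genes, Lox, rose and none fell, where 3.45% of all genes rose and 0.449% fell. The median log2 change was 0.33, beside -0.0075 for all genes, with 30 above 0 and 9 below (49.2% of all genes were above 0). An unadjusted p under 0.05 was found for 10 of 39 (16% of all genes). The fibrillar collagens had a median of 0.49, and 7 of 8 glycoproteins were above 0, among them Sparc at 0.67 ± 0.20 (edgeR adjusted p 0.0643). Contracted legs lay all above uncontracted legs for Col4a2, Loxl1 and Thbs4, 3 of 39 (10.3% of all genes), and all below for Col5a1, Eln, which codes for elastin, and Lamb2, also 3 of 39 (9.2% of all genes). Contracted Myc 1 was the lowest of the 3 contracted Myc libraries for 29 of the 39 genes. Mitochondrially encoded genes took 34.1% of its reads, against 28.2% and 27.5% in contracted Myc 2 and 3. Whether that share bears on the levels of the members was not tested. Without contracted Myc 1 the number of members that rose in Myc animals was 7: Col1a1, Col1a2, Col4a1, Sparc, Dcn, Lox and Loxl1, where 7.37% of all 7018 genes then tested passed in either direction. Without contracted libraries 2 and 3 of both genotypes it was 0 by edgeR, the median was -0.06, and 18 of 39 changes were above 0. The changes of Lox, Loxl1, Dcn and Col4a1 were then 0.27, 0.68, 0.25 and 0.16, and those of Col1a1, Col1a2 and Sparc -0.31, -0.13 and -0.03.

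Myc and control animals were compared in uncontracted legs, where the Myc reads of all 6 libraries go with the labels. There 37 of 39 members were lower in Myc legs, against 50.7% of all genes tested, and the exceptions were Thbs4 at 0.26 and Lum, the proteoglycan lumican, at 0.07. The median log2 change was -0.31, beside -0.0052 for all genes. No member passed by edgeR or DESeq2, and no gene of the 6676 passed by edgeR. An unadjusted p under 0.05 was found for 10 of 39 members (6.31% of all genes). The members with all Myc legs below all control legs numbered 9 (5.57% of all genes), and none had them all above (7.26% of all genes). The 3 animals of each genotype supply these values, so that all members share the same 6 libraries and are not independent of each other.

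Of the classes, the fibrillar collagens had the lowest median in uncontracted Myc legs relative to controls, a log2 change of -0.80, with values of -1.18 to -0.35. Col1a1 averaged 383 ± 80.0 CPM in uncontracted Myc legs and 779 ± 304 CPM in uncontracted control legs (SD, n = 3 each), a log2 change of -1.02 ± 0.28 (SE, edgeR adjusted p 0.541). The change was -0.93 ± 0.35 for Col1a2 (adjusted p 0.624) and -0.67 ± 0.20 for Col3a1 (adjusted p 0.564). With no low-count filter Col1a1 and Col1a2 passed in this comparison (edgeR adjusted p 1.95e-08 and 0.000138). When the 4 contracted libraries numbered 2 and 3, which are not part of this comparison but share its estimate of spread, were left out, Col1a1 fell with a log2 change of -1.03 (edgeR adjusted p 0.0441), 1 of 6 genes to pass among 7282.

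The other classes were nearer 0 in the same comparison, and their members were below 0 except where named. All 10 basement membrane and pericellular genes were lower in uncontracted Myc legs, with a median of -0.22, and Col6a2, a chain of type VI collagen, had -0.46 ± 0.21. All 8 glycoproteins were lower, with a median of -0.25. Sparc averaged 870 ± 154 CPM in uncontracted Myc legs and 1338 ± 196 CPM in uncontracted control legs (SD, n = 3 each), a log2 change of -0.62 ± 0.20 (edgeR adjusted p 0.564). Of the 4 proteoglycans 3 were lower, including Bgn at -0.31 ± 0.13 and Fmod, the fibril-binding fibromodulin, at -0.23 ± 0.13. All 8 processing genes were lower, with a median of -0.25, among them Timp2, a metalloprotease inhibitor, at -0.53 ± 0.20. In the tendon class Tnmd had -0.98 ± 0.39 and Comp -0.49 ± 0.27. None of these passed, except Sparc with no low-count filter (edgeR adjusted p 0.0115).

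Markers of matrix-making and other cells stood beside these levels as follows. The 15 fibroblast markers, all with reads, summed to 548 to 618 CPM in uncontracted Myc legs and 602 to 767 CPM in uncontracted control legs. The 10 tenocyte markers, all with reads, summed to 333 to 357 CPM in uncontracted Myc legs and 337 to 493 CPM in uncontracted control legs. Both ranges overlapped between genotypes, with uncontracted Myc legs at the low end. The macrophage sum, over 10 markers, was 121 to 132 CPM in uncontracted Myc legs and 148 to 211 CPM in uncontracted control legs, and the muscle fibre sum, over 8, was 103191 to 103577 CPM in uncontracted Myc legs and 110493 to 119765 CPM in uncontracted control legs. Those sums were lower in all 3 uncontracted Myc legs without overlap. Not every muscle fibre marker went this way. Acta1 averaged 37965 CPM in uncontracted Myc legs and 42421 CPM in uncontracted control legs. Mb averaged 1907 and 1568 CPM in the same groups, and Ckmt2 223 and 165 CPM. With equal weight per gene on the log scale, the 8 muscle fibre markers overlapped between genotypes, and the 5 macrophage markers tested did not. The part of these cells in the levels of the matrix genes was not tested.

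**Figure D3:**
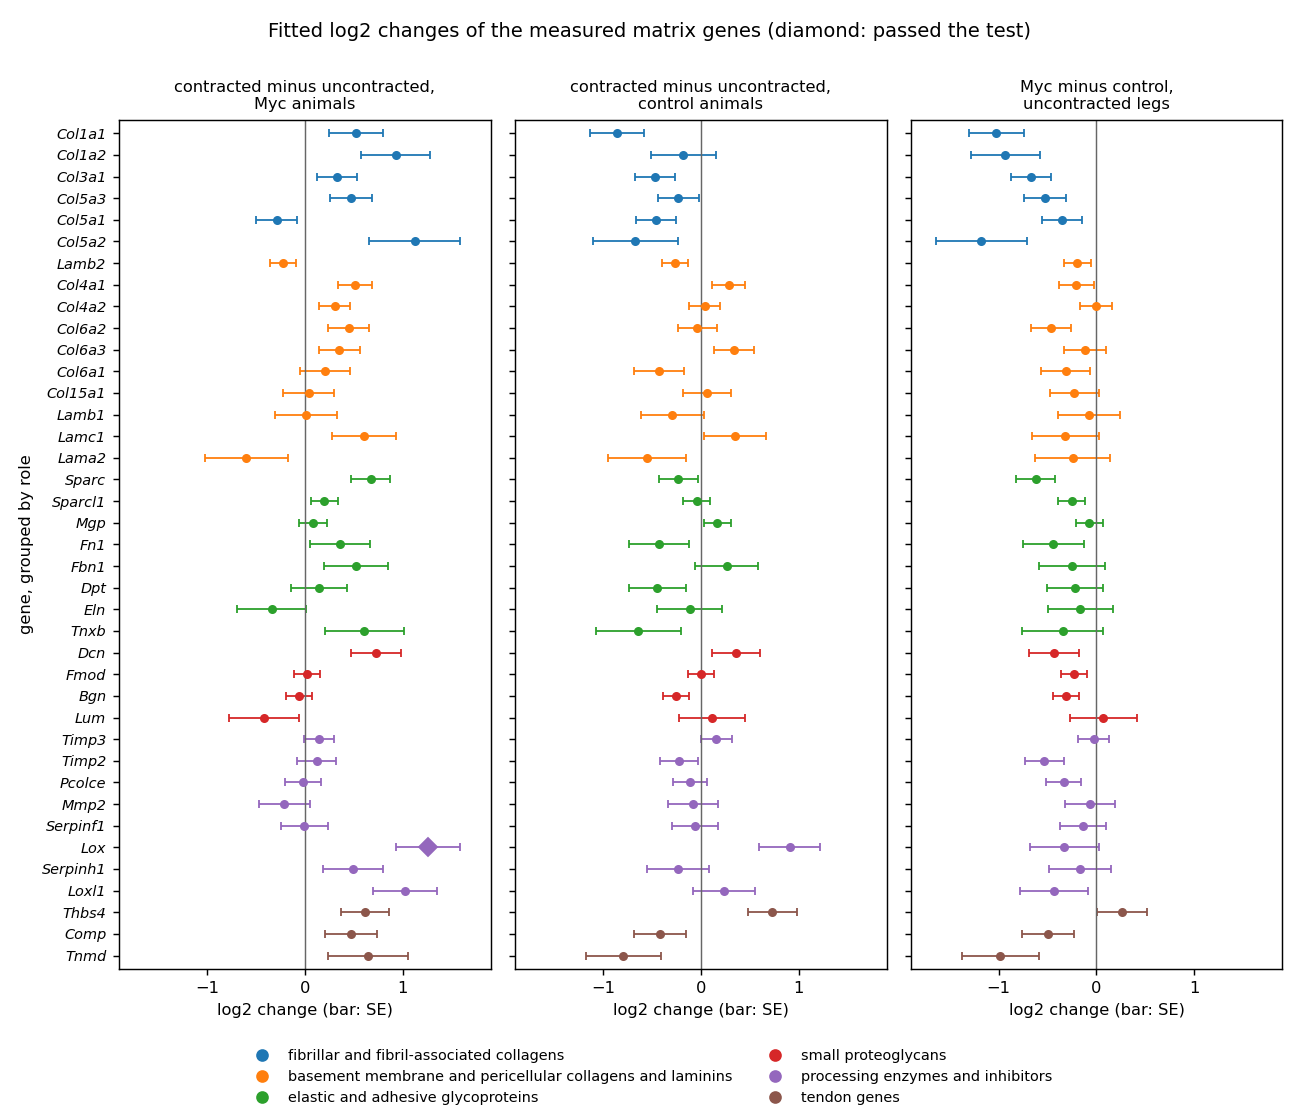
Log2 change of the 39 tested genes (horizontal axis) with its SE, by role from top to bottom, for contraction in Myc animals, contraction in control animals and Myc against control in uncontracted legs. Lox in Myc animals is the 1 gene that passed in these panels, and in the right-hand panel 37 of 39 points lie left of 0.

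In contracted legs, as labelled and with all libraries, the members were about evenly split between the genotypes. Their median log2 change, Myc over control, was 0.02, beside -0.0014 for all genes, with 21 above 0 and 18 below (49.7% of all genes were above 0). None passed by edgeR or DESeq2, 1 of 39 had an unadjusted p under 0.05 (3.06% of all genes), and none had Myc legs all above or all below control legs (4.21% and 3.68% of all genes). The gene with that p was Tnxb, which codes for tenascin X, at 0.90 ± 0.42 (edgeR adjusted p 0.999). Without the 4 contracted libraries numbered 2 and 3, which leaves 1 library per genotype, the median was -0.30. Of the 39 changes 10 were then above 0 and 29 below.

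The test of whether contraction acted differently in the genotypes was passed by none of the 39 genes in edgeR or DESeq2, and by none of the 6676 in edgeR. The members with an unadjusted p under 0.05 numbered 9 of 39 (4.96% of all genes). The median difference, Myc animals minus control animals, was 0.27 on the log2 scale, beside -0.0039 for all genes, and 31 of 39 differences were above 0 (49.6% of all genes). All 6 fibrillar collagens were above 0, with a median of 0.95. Col1a1 differed by 1.37 ± 0.39 (edgeR adjusted p 0.854) and Sparc by 0.90 ± 0.28 (adjusted p 0.854), and Sparc passed without contracted Myc 1. With no low-count filter Col1a1, Col1a2 and Sparc passed (edgeR adjusted p 5.58e-08, 0.00431 and 0.0073), where 18 of all 17871 genes did. This comparison uses the same uncontracted libraries as the comparison of genotypes, so the low uncontracted Myc legs enter both. Without the 4 libraries the median difference was 0.07 and that of Col1a1 0.18 (adjusted p 0.999).

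A list of 102 other matrix genes, covering proteases, growth factors, receptors and further collagens, was set beside the 44. Of these, 55 had enough reads to be tested and 1 symbol was not matched. With contraction in control animals 3 rose and none fell (2.38% of all genes rose): Timp1, a secreted metalloprotease inhibitor, Cd44, a hyaluronan receptor, and Sdc4, a cell-surface proteoglycan. In Myc animals 7 rose and none fell (3.45% of all genes rose), the same 3 with Adamts4, a proteoglycan-cleaving protease, Bmp1, a procollagen protease, Tgfb2, a growth factor that drives matrix production, and Tgfbr2, its receptor. The list's median log2 change was -0.01 in control animals and 0.12 in Myc animals, with 26 and 34 of the 55 genes above 0. Without the 4 contracted libraries numbered 2 and 3 none of the 55 passed in any comparison by edgeR. The number that rose in Myc animals was 1 without contracted Myc 2, 3 without contracted Myc 3, and 3, 2 and 3 without uncontracted Myc 1, 2 and 3 in turn. Among controls 1 rose by edgeR if uncontracted control 1 was left out, and 0 if uncontracted control 3 was. Over all genes, 2.12 to 3.26% passed in either direction in those fits in Myc animals, and 1.88 and 2.04% in those in controls. Averaged over genotypes 5 rose (5.71% of all genes rose), and 10 without contracted Myc 1, when 10.3% of all genes passed in either direction.

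Timp1 had 4.19, 17.2 and 10.3 CPM in contracted Myc legs and 1.91, 1.27 and 2.35 CPM in uncontracted Myc legs, against 8.50, 5.33 and 5.90 CPM in contracted control legs and 1.29, 0 and 0.619 CPM in uncontracted control legs. Contracted legs were higher without overlap in each genotype. Its log2 change was 2.51 ± 0.56 in Myc animals (edgeR adjusted p 0.00936) and 3.18 ± 0.75 in controls (adjusted p 0.0177), and without the 4 libraries 1.18 (adjusted p 0.948) and 3.55 (adjusted p 0.119). Cd44 rose by 2.49 on the log2 scale in Myc animals and 2.02 in controls, and Sdc4 by 1.43 in Myc animals and 1.77 in controls. Without the 4 libraries the changes were 1.94 and 1.79 for Cd44 (edgeR adjusted p 0.813 and 0.664) and 0.97 and 2.23 for Sdc4 (0.917 and 0.0710). Both genes were higher in the contracted leg of 6 of 6 animals. Their mean levels were 9.23 to 13.4 CPM in contracted Myc legs and 10.8 to 11.4 CPM in contracted control legs.

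Bmp1 rose by 1.23 ± 0.31 in Myc animals (edgeR adjusted p 0.0244), with 11.2, 18.4 and 19.5 CPM in contracted legs and 7.02, 7.63 and 6.27 CPM in uncontracted legs. In controls its change was -0.18 ± 0.33. Tgfb2 rose by 0.97 ± 0.26 in Myc animals (edgeR adjusted p 0.0386), and was 0.73 ± 0.26 in controls (adjusted p 0.190). Tgfbr2 rose by 1.94 in Myc animals, on 9, 13 and 12 reads in contracted legs and 2, 3 and 3 in uncontracted legs, and had -0.18 in controls. Without the 4 libraries the changes in Myc animals were 0.68 for Bmp1, 0.37 for Tgfb2 and 1.76 for Tgfbr2 (edgeR adjusted p 0.937, 0.952 and 0.827). Adamts4 had 0, 23 and 20 reads in contracted Myc legs and none in uncontracted Myc legs, and 8, 10 and 7 reads in contracted control legs against 1, 0 and 3 in uncontracted control legs. No difference between the genotypes' changes passed for these 55 genes by edgeR or DESeq2, and 4 of 55 had an unadjusted p under 0.05 (4.96% of all genes). In Myc animals the number of the 55 that rose was 4 with the animal as a block, when Tgfb2, Tgfbr2 and Sdc4 did not pass. Of all genes, 3.42% passed in either direction in that fit.

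Marker sums of several cell types were also set beside these genes by leg. The fibroblast and tenocyte sums overlapped between contracted and uncontracted legs in each genotype. Of the 5 neutrophil markers 4 had reads and Csf3r was at 0 throughout. Their sum was 4.91 to 53.0 CPM in contracted Myc legs and 0 to 1.28 CPM in uncontracted Myc legs, and 7.99 to 68.8 CPM in contracted control legs and 0.644 to 3.72 CPM in uncontracted control legs. The 10 macrophage markers, all with reads, summed to 123 to 139 CPM in contracted Myc legs and 121 to 132 CPM in uncontracted Myc legs, and to 108 to 159 CPM in contracted control legs and 148 to 211 CPM in uncontracted control legs. The macrophage sums overlapped between legs in each genotype, and their genes differed in direction. Cd68 averaged 9.60 CPM in contracted and 2.94 CPM in uncontracted legs, C1qa 24.2 against 36.7 CPM, and Csf1r 32.9 against 49.1 CPM. The 8 markers of mural and smooth muscle cells all had reads, and their sum was lower in contracted legs without overlap. It was 206 to 264 CPM in contracted Myc legs and 272 to 278 CPM in uncontracted Myc legs. In controls it was 233 to 250 CPM in contracted legs and 273 to 326 CPM in uncontracted legs. Single markers differed: Acta2 averaged 42.8 CPM in contracted and 62.3 CPM in uncontracted legs, and Abcc9 37.7 against 37.4 CPM. On the log scale with equal weight per gene, the 7 mural markers tested overlapped between legs in Myc animals and were separate in controls. The 4 erythrocyte markers, all with reads, summed to 425 to 1003 CPM in contracted Myc legs and 352 to 413 CPM in uncontracted Myc legs, and to 402 to 658 CPM in contracted control legs and 310 to 462 CPM in uncontracted control legs. The 7 adipocyte markers, all with reads, summed to 6157 to 6683 CPM in contracted Myc legs and 7282 to 9133 CPM in uncontracted Myc legs, and to 6743 to 8365 CPM in contracted control legs and 7178 to 8914 CPM in uncontracted control legs. Erythrocyte and adipocyte sums were thus separate in Myc animals and overlapped in controls. The adipocyte sum was mostly Car3, at a mean of 7112 CPM over the 12 libraries, beside 289 CPM for Cfd and 19.1 CPM for Adipoq. With equal weight per gene on the log scale, the 4 adipocyte markers tested overlapped between legs in Myc animals too. The part of these cells in the changes of Lox, Thbs4 and the other matrix genes was not tested.

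**Figure D4:**
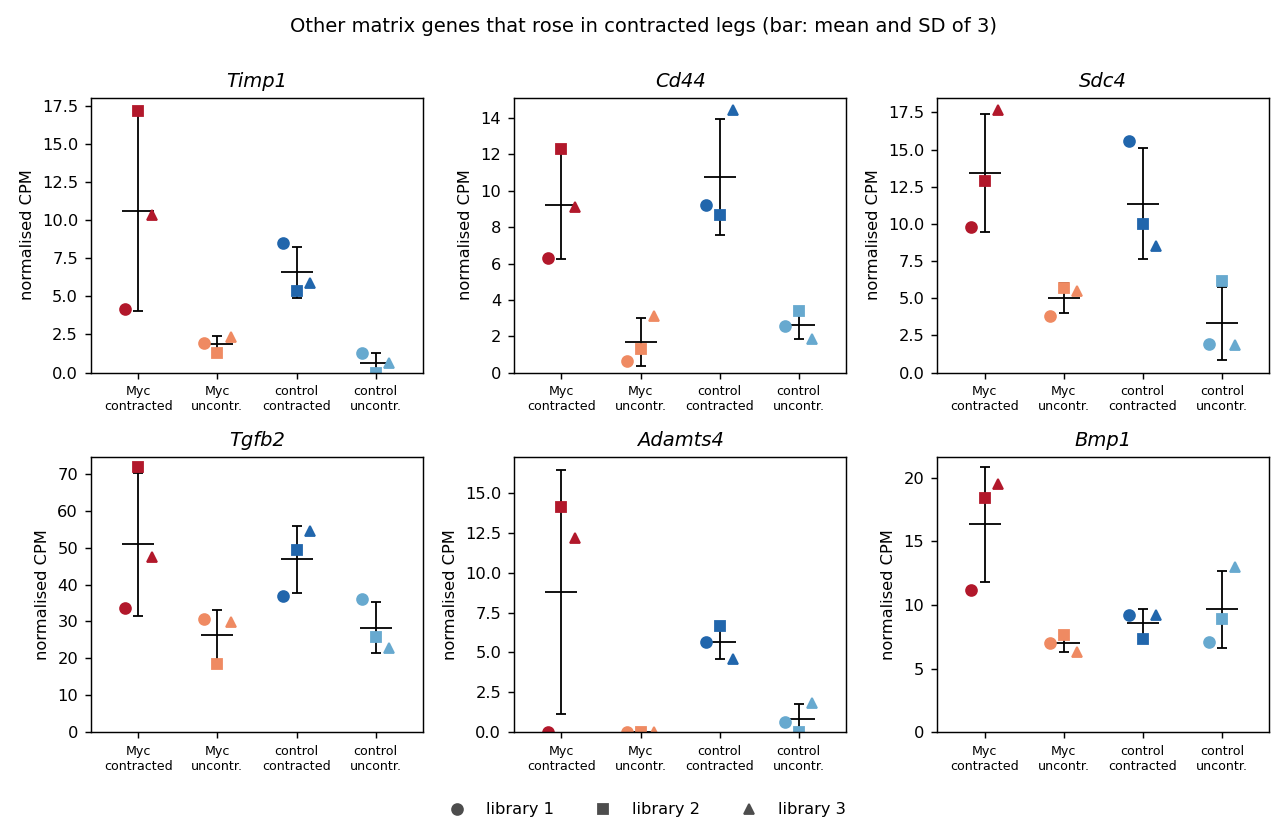
Level in normalised CPM (vertical axis, linear, from 0) of 6 other matrix genes that rose with contraction, in each of the 12 libraries, with the mean and SD of 3. Timp1, Cd44, Sdc4 and Tgfb2 are higher in the contracted than in the uncontracted legs of each genotype without overlap, and Adamts4 is at 0 in contracted Myc 1 and in all 3 uncontracted Myc libraries. Bmp1 is separate in Myc animals and overlaps in controls.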

How the data were processed

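The authors deposited 1 table of whole-number read counts per gene, not normalised. Per the labels' protocols, RNA was extracted with Trizol and libraries were made with QuantSeq 3' chemistry. The submitters' processing notes list STAR 2.5.2a, HTSeq 0.6.0, SAMtools and FastQC 0.11.5, and genome build mm10. Strand setting and annotation are not given in the sources used here, so reads of overlapping genes cannot be told apart. Gene names came from a reference list, and groups from the titles.

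The counts were scaled by TMM and tested with edgeR 4.0.16 in R 4.3.3 (filterByExpr, minimum count 10, quasi-likelihood F test, 2-sided, all 12 libraries, 4 group means). The threshold was an adjusted p under 0.05 (Benjamini-Hochberg, over 6676 genes). Each SE is the log2 change divided by the square root of F and restates the test. The steps were tested on simulated counts with changes of 1.5, 2 and 4-fold set in. For contraction in controls, 13.4%, 50.7% and 87.9% of these passed, in that order. For Myc in contracted legs the shares were 17.9%, 55.2% and 81.8%. Averaged over genotypes they were 37.3%, 83.6% and 89.4%. A gene that did not pass may thus still have changed. Each replicate is a separate animal, per the titles.

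A gene of the list of other matrix genes is not reported here. The members, gene lists and tests were chosen with earlier results of these data known. Library values are given for members that passed and, in each role, for the one with the highest mean; Col1a2, Col3a1, Col4a1 and Loxl1 were added after their values were seen. The legs of an animal are paired, per the titles; about their group means the 2 legs correlated at -0.12 to 0.11.

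Alternatives were other scalings, DESeq2 1.42.0, the low-count filter dropped or raised to 20 reads in 3 libraries, a replicate block, the 6 libraries of a comparison alone, each library left out, and the 4 doubted libraries left out. A fit by leg alone was added after seeing the data.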

Additional observations from a re-analysis of the deposited data

Results flagged for a closer look

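For 3 members the legs moved one way in every animal labelled Myc and the other way in every animal labelled control, and in each case the test of the difference did not pass. How many of all genes share this pattern was not counted. Col5a2, a chain that sets fibril width, was higher in the contracted leg of every Myc animal and lower in that of every control animal, a difference of 1.79 on the log2 scale (edgeR adjusted p 0.854). It rests on 2 to 23 reads per library, and Gm38211, annotated over it, had 71 reads in all. Serpinh1, the collagen chaperone HSP47, differed in the same way by 0.72 (edgeR adjusted p 0.966). Comp differed in the same way by 0.89 (edgeR adjusted p 0.93). The pattern uses the contracted libraries 2 and 3 whose Myc reads go against their labels. Without those 4 libraries the differences, from 1 contracted library per genotype, were 1.34 for Col5a2, 0.89 for Serpinh1 and 1.31 for Comp (edgeR adjusted p 0.999 for each).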

How the results depend on the processing

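The number of members that passed changed with the low-count filter. With no filter it was 3 for contraction in controls (Col1a1, Lox and Thbs4) and 5 in Myc animals (Col1a1, Col1a2, Dcn, Sparc and Lox). It was 5 averaged (Col1a2, Col4a1, Dcn, Lox and Thbs4). For Myc in uncontracted legs and for the interaction it was 3 each (Col1a1, Col1a2 and Sparc). Of all 17871 genes, 305, 433, 695, 24 and 18 passed in these comparisons, in that order. The cause was not tested. DESeq2 gave 2 in Myc animals, Lox and Sparc, where 3.19% of all genes passed. Without the 4 contracted libraries numbered 2 and 3 the counts were 0 in Myc animals, 0 averaged and 1 for Myc in uncontracted legs, with fewer samples in the fit. Leaving out each library in turn gave 0 to 2 members in controls, 0 to 7 in Myc animals, 1 to 5 averaged, 0 to 1 for the interaction, and 0 for both comparisons of Myc with control. The shares of all genes in those fits were 1.66 to 4.45% in controls, 2.12 to 7.37% in Myc animals and 5.05 to 10.3% averaged. The 5 averaged calls came without contracted Myc 1 or without contracted control 1, and 4 without uncontracted control 3. Of all genes, 10.3%, 10.1% and 6.87% passed in those fits, in that order. In Myc animals 2 passed without contracted control 1 or uncontracted Myc 1, where 4.71% and 3.26% of all genes did. No result changed direction while past the threshold.

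With the animal as a replicate block, 1 member passed in Myc animals, 2 averaged, 0 in controls and 0 for the interaction. Of all genes, 3.42%, 6.64%, 2.58% and 0% did. With the replicate number as a block, 0 passed in either comparison of Myc with control. The blocks changed no other call of a member.

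The 7 other matrix genes that rose in Myc animals became 4 by DESeq2, 3 with the stricter filter and 2 with the 6 libraries alone. Of all genes, 3.19%, 5.14% and 3.96% passed in either direction in those settings. The 3 in controls became 5 with no filter and 1 with the stricter one, and the 5 averaged became 10 with no filter and 2 with the stricter one. Of all genes, 1.71% and 3.74% passed in controls in those settings, and 3.89% and 9.44% averaged. The filter also changes how many genes are tested, 17871 with none and 4627 with the stricter one.

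The members' median change in uncontracted legs stayed between -0.32 and -0.28 over 8 other settings, and between -0.37 and -0.20 with single libraries left out. Depth limits the less abundant members: Lama2 had 2 reads in contracted Myc 1 and 21 in uncontracted control 3.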
